A study of Homo sapiens with 12 samples.

Results

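The 9 libraries of 786-O cells carrying a hairpin against RARRES2 were set, as 1 pool, against the 3 libraries carrying a hairpin against GFP, so that all 12 libraries of the series entered. 786-O is an established line of clear cell renal cell carcinoma that lacks functional VHL protein. Every library came from cells infected with lentivirus: the controls carried shGFP, and the others carried shRARRES2_1, shRARRES2_2 or shRARRES2_3, with 3 libraries for each construct. Each gene was described by 1 rule: it counted as separated when all 9 hairpin libraries lay on the same side of all 3 control libraries in CPM, read counts scaled to library size, with no overlap. Genes needed at least 1 CPM in at least 3 libraries, which 15236 of 58381 entries had. The labels do not state whether replicates were separate cultures or clones. The p-values therefore reflect the spread among these libraries alone, which may be technical.

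RARRES2 encodes chemerin, a protein secreted as an inactive precursor and trimmed by proteases into a chemoattractant for leukocytes. Chemerin signals through the G-protein-coupled receptor CMKLR1, can bind GPR1, and is held at the cell surface by CCRL2, which does not signal classically. In clear cell renal carcinoma the loss of VHL leaves HIF subunits undegraded, and HIF-2 alpha, encoded by EPAS1, drives much of the transcription typical of this tumour. The hairpins act on RNA, so a transcript that a hairpin reaches through its own sequence can also be lowered apart from any effect of chemerin.

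Recovered depth was 12599424 to 23594195 reads on genes per library, and 3 reads stood for 0.131 to 0.223 CPM. The epithelial renal factor PAX8 was present in every library (239 to 594 CPM), whereas the leukocyte marker PTPRC reached at most 0.148 CPM and the endothelial marker CDH5 at most 0.2 CPM. Other markers of these classes were present at low levels in every library: CD14 (0.594 to 2.81 CPM), PECAM1 (0.357 to 3.03 CPM) and KDR (0.223 to 1.31 CPM). CD3D, CD68, LYZ and VWF reached at most 0.249 CPM. The renal marker CDH6 had 15.3 and 18.1 CPM in replicate 2 of shGFP and shRARRES2_3, against 82.65 to 319 CPM elsewhere. Keratinocyte markers stood apart in shGFP replicate 2, where the median of the 6 measured markers was 72.2 CPM against 4.65 CPM or less in every other library. KRT5 reached 169 CPM there and was listed at 0 in shGFP replicate 1. shRARRES2_3 replicate 2 correlated across genes with shGFP replicate 2 (r = 0.982), and shRARRES2_1 replicate 1 with shRARRES2_3 replicate 1 (r = 0.981). Replicates 2 and 3 of shRARRES2_1 were far closer to each other (r = 0.997) than other replicates of 1 construct. The chi-square of their recovered reads over genes was 2.77 per degree of freedom, against 56.6 to 330 for those other pairs. They still differed by more than sampling noise, and were kept as 2 of the 9 hairpin libraries. With the pair averaged as 1 library, RARRES2 changed by -3.47 and was again the only limma call, and 137 genes were higher and 119 lower with no overlap. Results are given with and without shRARRES2_3 replicate 2 where they turn on it.

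RARRES2 itself, the targeted gene, was the most strongly lowered of the separated genes. In GRCh38 it spans 150338317 to 150341674 of chromosome 7, minus strand (ENSG00000106538.9). The controls had 809, 483 and 469 CPM, and the hairpin libraries had 37.5 CPM at the lowest, 44.2 at the median and 92.6 at the highest. No hairpin library came near the controls, whose mean was 587 ± 192 CPM (SD, n = 3) against 52.5 ± 18.6 CPM (SD, n = 9), or 8.95% of the control. On the log2(CPM + 1) scale RARRES2 fell by 3.47 (SE 0.22, limma adjusted p = 2.55e-05, Benjamini-Hochberg over 15236 genes). The change was -3.81, -2.97 and -3.64 with hairpins 1, 2 and 3.

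Among all genes, RARRES2 was the only one that passed the pooled limma test at an adjusted p of 0.05. No gene (0%) passed as higher and 1 (0.00656%) as lower, while 1054 genes (6.92%) were higher and 866 (5.68%) lower at an unadjusted p under 0.05. edgeR on the recovered reads also called RARRES2 alone (log2 change -3.60, adjusted p = 1.72e-05), with 875 higher and 975 lower genes at an unadjusted p under 0.05. DESeq2 on the same reads called 61 genes higher and 71 lower. The number of calls depended on 1 library. Without shRARRES2_3 replicate 2, limma called 188 genes higher (1.25%) and 170 lower (1.13%) of 15008 genes. Without that library and shGFP replicate 2 together, it called 1 gene higher and 1 lower. The first of these libraries was singled out because the counts turned on it, so calls made without it are no independent evidence.

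**Figure D1:**
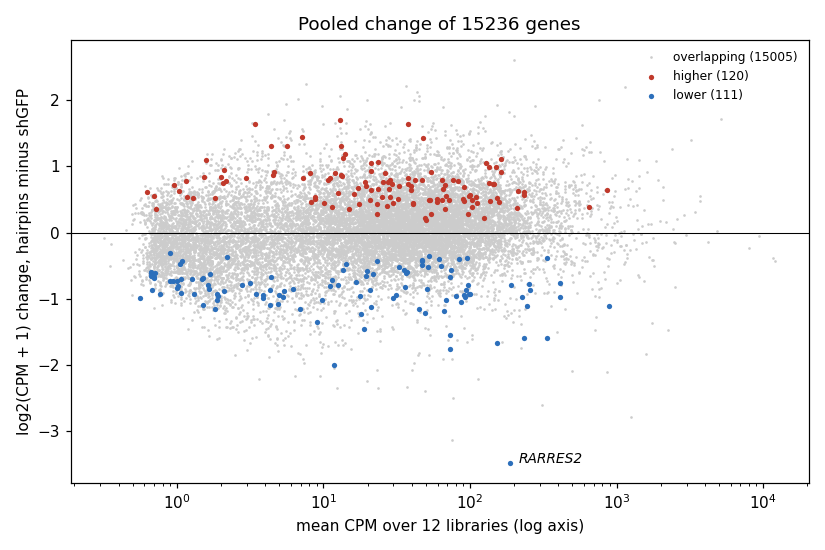
Pooled log2(CPM + 1) change (mean of the 3 hairpins minus shGFP, vertical axis) against mean CPM over the 12 libraries (horizontal log axis) for 15236 genes, with the 120 genes higher in all 9 hairpin libraries in red, the 111 lower in blue and overlapping genes in grey. RARRES2, at -3.47, lies below every other separated gene, and many grey genes have changes as large as the coloured ones.

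By the rule of no overlap, 120 genes (0.788% of those tested) were higher and 111 (0.729%) were lower in all 9 hairpin libraries than in all 3 controls, 231 (1.52%) in all. The changes were moderate. The median log2 change was 0.66 among the higher genes (range 0.20 to 1.70) and -0.85 among the lower genes (range -3.47 to -0.30). A change of at least 1 in size was seen for 15 higher and 25 lower genes, and with each hairpin separately for 6 and 10. Of these separated genes, 103 of 120 and 76 of 111 had a mean of at least 5 CPM in the group where they were higher. Through that group alone 12 higher and 7 lower genes passed the filter on low values. These values describe genes that the rule picked, and carry no test of the pool.

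The margins of separation were thin. The distance between the nearest hairpin library and the nearest control had a median of 0.09 among the higher genes and -0.085 among the lower ones on the log2(CPM + 1) scale. It was at least 0.25 in size for 8 higher and 16 lower genes. ORAI1, the pore subunit of store-operated calcium channels, was just inside the rule, with its lowest hairpin library and its highest control both at 26.0 CPM. MAPK14, the p38 alpha kinase, was just outside, with its lowest hairpin library at 108.5 CPM and its highest control at 108.6 CPM. On the lower side PPP1R2, an inhibitor of protein phosphatase 1, was just inside (68.2 against 68.3 CPM). CKB, the brain-type creatine kinase, was just outside, because shRARRES2_3 replicate 2 and the lowest control both had 25.6 CPM, while the other 8 hairpin libraries had 1.96 to 13.5 CPM.

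The changes of the separated genes by hairpin describe genes that the rule picked from the same values, and carry no test. Among the higher genes the median change was 0.74, 0.68 and 0.59 with hairpins 1, 2 and 3, and among the lower genes -0.84, -0.77 and -0.75. The change was largest in size with hairpin 1 for 47 higher and 48 lower genes, with hairpin 2 for 54 and 42, and with hairpin 3 for 19 and 21. Hairpin 3 includes replicate 2, the hairpin library nearest to the controls for 69 of the higher and 51 of the lower genes. The changes of all 3 hairpins share the same 3 control libraries. A limma F-test between the hairpins called 38 genes (0.249%), of which EPAS1 was the only separated gene.

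One hairpin library kept many genes out. Exactly 8 of the 9 hairpin libraries lay beyond all controls for 948 genes on the higher side and 695 on the lower side. The exception was shRARRES2_3 replicate 2 for 856 and 595 of them, whereas each other hairpin library was the exception for 2 to 24 genes. It was also the library nearest to the controls for 69 of the 120 higher and 51 of the 111 lower genes. Without it, 976 genes (6.50%) were higher and 658 (4.38%) lower with no overlap, and all 120 and 111 genes stayed among them. Leaving out any other hairpin library gave 124 to 138 higher and 113 to 134 lower genes. Leaving out a control gave 292 and 286 (replicate 1), 683 and 462 (replicate 2) or 324 and 237 (replicate 3). Across genes this library correlated more with shGFP replicate 2 (r = 0.982) than with shGFP replicates 1 and 3 (r = 0.931 and 0.933). Why it lies near shGFP replicate 2 was not tested.

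**Figure D2:**
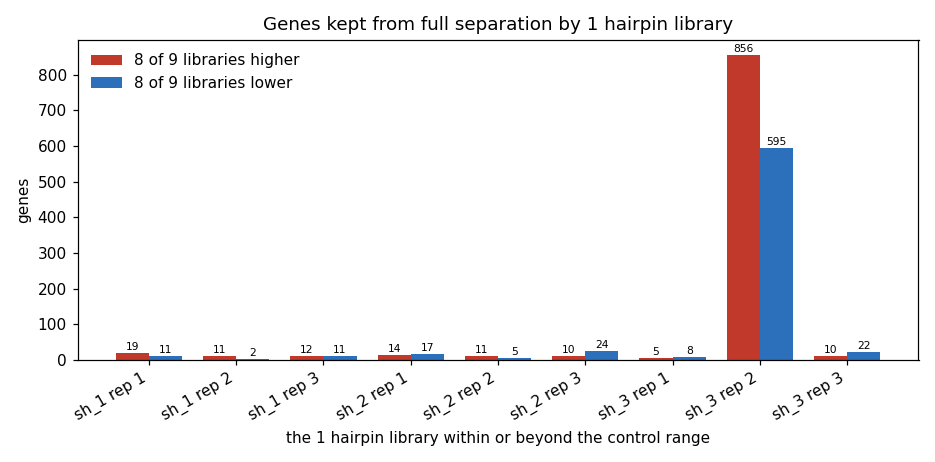
Number of genes (vertical axis) for which 8 of 9 hairpin libraries lay beyond all controls, by the hairpin library that did not (horizontal axis), for genes otherwise higher (red) and lower (blue). shRARRES2_3 replicate 2 is the exception for 856 and 595 genes, and every other library for 24 or fewer.

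The chemerin receptors gave no separated gene. CCRL2 was listed at 0, 0.676 and 0.222 CPM in the controls and at 0.549 to 13.2 CPM (median 2.42) in the hairpin libraries. It overlapped by 1 library, shRARRES2_3 replicate 2 at 0.549 CPM, while the other 8 were all above the controls. Its pooled log2 change was 1.66 (SE 0.32, limma adjusted p = 0.261), and 1.80 without that library (limma adjusted p = 0.0294). Without shGFP replicate 2 as well, CCRL2 did not pass the test. By hairpin the change was 2.99, 0.87 and 1.12. GPR1 had 0.668, 0.728 and 11.3 CPM in the controls and 1.5 to 13.9 CPM in the hairpin libraries (log2 change 0.83, limma adjusted p = 0.521). All 9 hairpin libraries were above shGFP replicates 1 and 2, and GPR1 overlapped through shGFP replicate 3. CMKLR1 had 0 to 4 reads per library and was not tested.

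Among 13 measured genes that host small nucleolar RNAs, 3 were separated as lower, against 0.729% of all genes tested. Their spliced exons are mostly released as noncoding RNA, while the introns are trimmed into the small nucleolar RNAs that guide modification of ribosomal RNA. All 13 measured members had a pooled change below 0 (100%, against 46.8% of all genes tested), with a median of -0.68 against 0.04 for all genes. GAS5, ZFAS1 and C6orf48 were separated, none of the 13 passed the test, and 7 had an unadjusted p under 0.05, where 5.68% of all genes were lower at that level. Their summed level was 1553, 1583 and 2266 CPM in the controls and 620.1 to 1110 CPM in the hairpin libraries, with no overlap. The list was drawn up with earlier results of these libraries known, so its direction is no independent evidence.

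GAS5 (ENSG00000234741.7), a noncoding host named for its rise on growth arrest, spans 173863900 to 173868882 of chromosome 1, minus strand. It had 242, 266 and 441 CPM in the controls and 61.7 CPM at the lowest, 106 at the median and 141 at the highest hairpin library. The highest hairpin library, shRARRES2_3 replicate 2, stayed well under the lowest control. The means were 317 ± 109 (SD, n = 3) and 99.1 ± 25.3 CPM (SD, n = 9), a log2 change of -1.66 (SE 0.26, limma adjusted p = 0.206), with -1.98, -1.49 and -1.50 by hairpin.

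ZFAS1 (ENSG00000177410.12), a host annotated as antisense to ZNFX1, spans 49278178 to 49295738 of chromosome 20, plus strand. It had 33.5, 26.8 and 50.5 CPM in the controls and 7.49, 14.3 and 20.2 CPM as lowest, median and highest hairpin library. The log2 change was -1.46 (SE 0.26, limma adjusted p = 0.246). C6orf48 (ENSG00000204387.12), also called SNHG32, spans 31834608 to 31839766 of chromosome 6, plus strand. It had 399, 296 and 709 CPM in the controls against 88.3, 146 and 274 CPM as lowest, median and highest hairpin library, and the gap to the lowest control was small. Its log2 change was -1.59 (SE 0.29, limma adjusted p = 0.246).

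Without shRARRES2_3 replicate 2, these 3 hosts and 2 more, EPB41L4A-AS1 and SNHG8, passed the limma test as lower, 5 of 13 against 1.13% of all genes then tested. Without that library and shGFP replicate 2 together, 0 hosts passed and 10 of 13 were below 0. The adjusted p was 0.0294 for GAS5, 0.0316 for ZFAS1, 0.0334 for C6orf48, 0.0316 for EPB41L4A-AS1 and 0.0476 for SNHG8. EPB41L4A-AS1 had missed the rule only through that library, which had 33.0 CPM against a lowest control of 25.3 CPM and at most 15.7 CPM in the other hairpin libraries.

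Host genes of this kind are known for transcripts that begin in a run of pyrimidines, as ribosomal protein messages do, so the starts of the 3 separated hosts are shown. The sequences are RefSeq windows on GRCh38.p14, on the strand of the gene, from 60 bases before to 25 bases from its RefSeq start. Capitals mark the longest run of at least 6 bases that are all C or T within 5 bases of the start.

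GAS5: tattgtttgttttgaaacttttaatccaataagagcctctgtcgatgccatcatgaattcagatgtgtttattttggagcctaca

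ZFAS1: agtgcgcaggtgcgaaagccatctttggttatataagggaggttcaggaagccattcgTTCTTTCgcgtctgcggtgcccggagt

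C6orf48: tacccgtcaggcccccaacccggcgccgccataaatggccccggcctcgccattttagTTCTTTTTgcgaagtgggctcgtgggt

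The windows are chr1:173869021-173869105 on the minus strand for GAS5, chr20:49278582-49278666 on the plus strand for ZFAS1 and chr6:31834856-31834940 on the plus strand for C6orf48. ZFAS1 holds a run of 7 bases and C6orf48 a run of 8, both from 2 bases before the start, and the GAS5 window holds none at its RefSeq start, which lies upstream of the GENCODE 29 span given above. Of the 13 measured hosts, 11 had a RefSeq window and 9 of those held such a run, on the gene's strand, against 23.1% of all 35116 windows. A run of letters is a description of the start and says nothing of what acts on it.

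Ribosomal protein genes are known for the same kind of start. Of 74 measured members, 57 were below 0 and 17 above, with a median of -0.17, and this median was 0.12 without shGFP replicate 2 and shRARRES2_3 replicate 2. RPL26 was the separated member (1 of 74, against 0.729% of all genes). It had 15.7, 20 and 13.5 CPM in the controls and 7.22 to 12.7 CPM in the hairpin libraries (log2 change -0.71, limma adjusted p = 0.383). RPL36A, which was outside the list, had 12.7, 10.9 and 10.8 CPM in the controls and 0.690 to 8.20 CPM in the hairpin libraries. It was lowest in shRARRES2_1 replicate 1 (0.690 CPM) and shRARRES2_3 replicate 1 (0.985 CPM). Ribosomal protein genes have many near-identical copies, and counts assigned to such a family are uncertain.

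**Figure D3:**
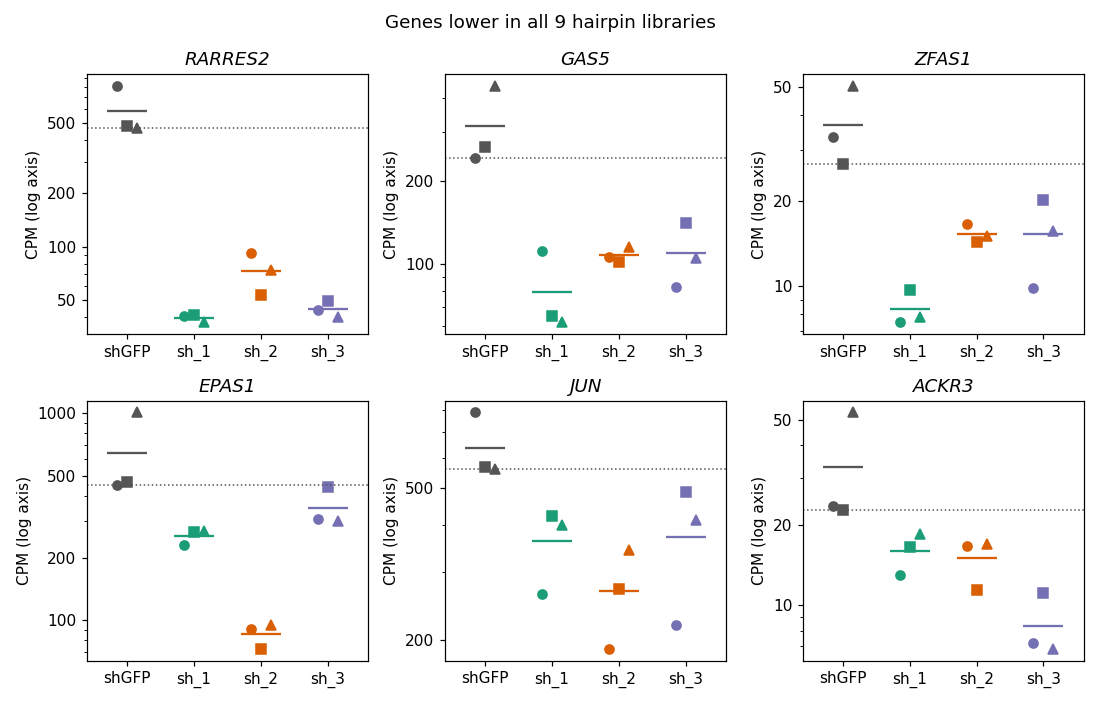
CPM (log axes) of RARRES2, GAS5, ZFAS1, EPAS1, JUN and ACKR3 in each library, by construct (circle, square and triangle for replicates 1, 2 and 3), with group means as bars and the lowest control as a dotted line. All 9 hairpin libraries lie under the dotted line in each panel, RARRES2 by the widest distance, and EPAS1 in shRARRES2_3 replicate 2 by the smallest of the 6.

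EPAS1, which encodes the main hypoxia-inducible factor subunit of these tumours, was one of the separated lower genes. EPAS1 (ENSG00000116016.13; chromosome 2, 46293667 to 46386703, plus strand) had 449.6, 464 and 1008 CPM in the controls. The hairpin libraries had 72.6 CPM at the lowest, 266 at the median and 442 at the highest. All 9 were below the controls, but shRARRES2_3 replicate 2 nearly reached the lowest one. The pooled log2 change was -1.60 (SE 0.27, limma adjusted p = 0.246). The hairpins differed, with changes of -1.22, -2.78 and -0.79 (limma F-test between hairpins, adjusted p = 0.0441). Without shRARRES2_3 replicate 2 the pooled change was -1.66 (limma adjusted p = 0.0316). Without shGFP replicate 2 as well, EPAS1 did not pass the test.

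Of 30 measured HIF targets, 23 had a change below 0 (76.7%, against 46.8% of all genes), with a median of -0.58, and none passed the test. BHLHE40, a transcriptional repressor induced by hypoxia, was the separated member (1 of 30, against 0.729% of all genes). It had 359, 351 and 455 CPM in the controls and 77.6 CPM at the lowest, 186 at the median and 332 at the highest hairpin library. Its log2 change was -1.10 (SE 0.21, limma adjusted p = 0.278), with -1.05, -1.83 and -0.42 by hairpin.

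VEGFA, the main angiogenic growth factor, had 2040, 911 and 2738 CPM in the controls and 118 to 1268 CPM in the hairpin libraries, and overlapped (log2 change -2.10, limma adjusted p = 0.370). ADM, the vasodilator adrenomedullin, overlapped only through shRARRES2_3 replicate 2 (465 CPM), since the other 8 hairpin libraries had 21.5 to 155 CPM against controls of 214, 282 and 332 CPM. On the log2 scale ADM changed by -1.65 (limma adjusted p = 0.383). Without that library, 5 of 30 HIF targets passed as lower, against 1.13% of all genes then tested, among them VEGFA (limma adjusted p = 0.0412), ADM (0.0296) and BHLHE40 (0.0366). Without that library and shGFP replicate 2 together, 0 of them passed and 26 of 30 were below 0. The median of the HIF targets depended on 1 control and 1 hairpin: it was -0.22 without shGFP replicate 3 and -0.20 without the 3 shRARRES2_2 libraries. HIF1A, which encodes HIF-1 alpha, had 273, 418 and 256 CPM in the controls and 83.6 to 396 CPM in the hairpin libraries (log2 change -1.21, limma adjusted p = 0.383).

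Immediate early genes, which encode factors made within minutes of a stimulus, gave no call. Of 22 measured, 20 had a change below 0 (90.9%, against 46.8% of all genes), with a median of -0.77. An unadjusted p under 0.05 was reached by 7, where 5.68% of all genes were lower at that level. JUN, a subunit of the AP-1 factor, was the separated member (1 of 22, against 0.729% of all genes), with 789, 566 and 559 CPM in the controls and 189, 344 and 487 CPM as lowest, median and highest hairpin library. The log2 change was -0.98 (SE 0.30, limma adjusted p = 0.383), and all 3 hairpins were lower by 0.83 or more. DUSP1, a phosphatase that switches off MAP kinases, had 617, 140.3 and 412 CPM in the controls and 85.5 to 161 CPM in the hairpin libraries, and overlapped through shGFP replicate 2.

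The controls varied widely in this list. FOS, named after its values were seen, had 491 CPM in shGFP replicate 1 against 1.97 and 5.37 CPM in the other controls. KLF6, a zinc finger factor, had 412, 139.7 and 432 CPM in the controls and 154 to 456 CPM in the hairpin libraries. Its change was 0.02 (limma adjusted p = 0.979) and turned to -0.07 when libraries were scaled to a common total.

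ACKR3, an atypical receptor that scavenges the chemokine CXCL12 and has been reported to bind other peptides, had 23.6, 22.9 and 53.2 CPM in the controls. The hairpin libraries had 6.85, 13 and 18.5 CPM as lowest, median and highest, all below the controls (log2 change -1.23, SE 0.29, limma adjusted p = 0.383). COL6A2, a chain of collagen VI, had 2178, 1007 and 1288 CPM in the controls and 428 to 1000.5 CPM in the hairpin libraries, where hairpin 3 came closest. The pooled log2 change was -1.11 (limma adjusted p = 0.383). LAMA5, the laminin alpha 5 chain, had 598, 601 and 513 CPM in the controls and 118 to 481 CPM in the hairpin libraries (log2 change -0.76, limma adjusted p = 0.384).

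The wider list of extracellular matrix genes did not share 1 direction, with 9 of 24 members above 0, 15 below, and COL6A2 as the separated one (1 of 24, against 0.729% of all genes). HERPUD1, a component of the degradation machinery of the endoplasmic reticulum, was the separated member of the ATF4 and unfolded protein response list (1 of 28, against 0.729% of all genes). It had 130.2, 172 and 123 CPM in the controls and 52.1 to 113 CPM in the hairpin libraries (log2 change -0.80, limma adjusted p = 0.383). In that list 19 of 28 were below 0, with a median of -0.35. RNASET2, a lysosomal ribonuclease, had 109, 97.7 and 121 CPM in the controls and 19.4 to 93.4 CPM in the hairpin libraries. RNASET2 changed by -1.19 on the log2 scale (SE 0.21, limma adjusted p = 0.246), with -1.04, -1.99 and -0.54 by hairpin. The lysosome list as a whole was balanced, with 12 members above and 12 below 0.

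Some lower genes were lowest in 2 particular libraries. GABPB1-AS1, an antisense transcript, had 117, 129 and 176 CPM in the controls and a median of 58.2 CPM in the hairpin libraries. shRARRES2_1 replicate 1 (8.28 CPM) and shRARRES2_3 replicate 1 (11.7 CPM) were lowest, and all other hairpin libraries had at least 33.8 CPM. LENG8 had 388, 347 and 355 CPM in the controls and 82.9 and 99.2 CPM in those 2 libraries, against 129 to 319 CPM in the other 7. EIF4A1, an RNA helicase of translation initiation, had 28.4, 10.4 and 11.9 CPM in the controls. It was at 1.06 and 0.869 CPM in those 2 libraries and at 6.61 to 10.2 CPM in the other 7. The pooled changes of GABPB1-AS1, LENG8 and EIF4A1 were -1.75 (SE 0.64), -0.87 (SE 0.43) and -1.35 (SE 0.58), and the limma adjusted p was 0.384, 0.410 and 0.386. These 2 libraries also had the lowest numbers of genes with a read, 21217 and 20932 against 24065 to 27603 in the other hairpin and control libraries, and the lowest scaling factors (0.798 and 0.788). Their part in these values was not tested.

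The remaining lower genes with wide margins included MIDN, DRAM2, NINL and ZNF783. MIDN, which encodes midnolin, had 119.5, 159 and 157 CPM in the controls and 47.9 to 102 CPM in the hairpin libraries (log2 change -0.98, limma adjusted p = 0.383). DRAM2, a lysosomal membrane protein linked to autophagy, had 64.4, 69.1 and 96.3 CPM in the controls and 29.7 to 55.9 CPM in the hairpin libraries. The change was -0.85 on the log2 scale (limma adjusted p = 0.383). NINL and ZNF783 both changed by -0.95. Both were lowest in shRARRES2_1 replicate 1 and shRARRES2_3 replicate 1. NINL had 11.6 and 12.5 CPM there and 18.0 to 34.5 CPM in the other hairpin libraries. ZNF783 had 6.37 and 6.84 CPM there and 12.7 to 20.8 CPM in the others. NPIPB4 (-0.98) belongs to a family of near-identical copies, so its counts are uncertain.

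By annotation, 82 of the 111 lower genes were protein coding (73.9%, against 83.7% of all genes tested) and 12 were antisense (10.8%, against 4.75%). Among the 120 higher genes, 113 were protein coding (94.2%) and 1 was antisense (0.833%). The strand setting of the counting is not given, so an antisense transcript and its partner may share reads. Median transcript GC content was 48% among the higher genes, 50.8% among the lower genes and 48.1% among all genes. Median transcript length was 3015, 3623 and 3384 bases.

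SRSF1 (ENSG00000136450.12), a splicing factor that binds exonic enhancers, was one of the separated higher genes and spans 58003360 to 58007346 of chromosome 17, minus strand. It had 65.4, 75.9 and 82.2 CPM in the controls and 98.5 CPM at the lowest, 147 at the median and 270.4 at the highest hairpin library. All hairpin libraries were above the controls, shRARRES2_2 replicate 2 by the most and shRARRES2_3 replicate 2 by the least. The means were 74.5 ± 8.5 (SD, n = 3) and 154 ± 48.2 CPM (SD, n = 9), a log2 change of 0.99 (SE 0.23, limma adjusted p = 0.383). That change was 1.06 without shRARRES2_3 replicate 2 (limma adjusted p = 0.0412). Without shGFP replicate 2 as well, limma called only 1 gene higher.

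HNRNPU, a nuclear matrix and RNA-binding protein, had 504, 532 and 508 CPM in the controls and 561, 634 and 1096 CPM as lowest, median and highest hairpin library (log2 change 0.39, limma adjusted p = 0.466). ACIN1, a component of the splicing-dependent exon junction machinery, had 164, 183 and 164 CPM in the controls and 188 to 258 CPM in the hairpin libraries (0.37, limma adjusted p = 0.403). AGO1, which loads small RNAs, was the separated member of the small RNA pathway (1 of 15, against 0.788% of all genes). It had 42.5, 34.9 and 44.9 CPM in the controls and 50.0 to 68.4 CPM in the hairpin libraries. AGO1 changed by 0.50 on the log2 scale (SE 0.17, limma adjusted p = 0.383). The pathway's 15 measured members were balanced, with 7 above and 8 below 0.

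EIF4G2, which supports initiation without the cap, had 578, 571 and 606 CPM in the controls and 621, 944 and 1563 CPM as lowest, median and highest hairpin library (log2 change 0.64, SE 0.29, limma adjusted p = 0.394). EIF3D, a subunit of initiation factor 3, had 146, 174 and 148 CPM in the controls and a median of 193 CPM in the hairpin libraries. It was at 544 and 409.6 CPM in shRARRES2_1 replicate 1 and shRARRES2_3 replicate 1, and at 176 to 278 CPM in the other 7 (log2 change 0.62, limma adjusted p = 0.448). No list of splicing or translation genes was compared with all genes here.

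**Figure D4:**
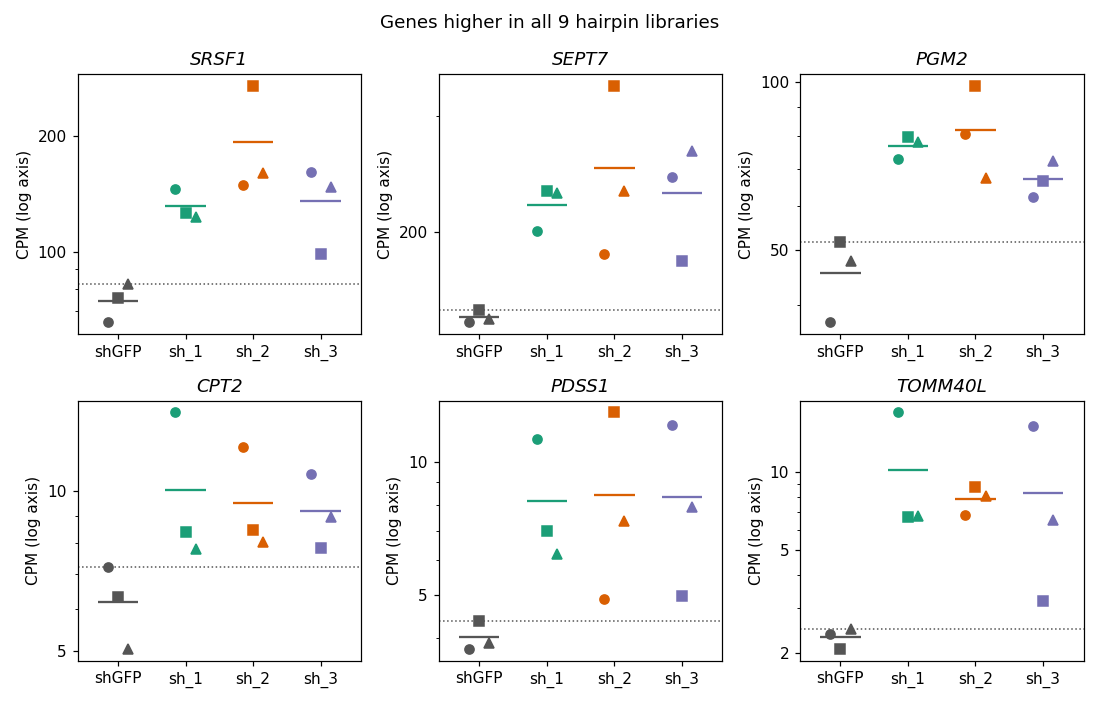
CPM (log axes) of SRSF1, SEPT7, PGM2, CPT2, PDSS1 and TOMM40L in each library, by construct (circle, square and triangle for replicates 1, 2 and 3), with group means as bars and the highest control as a dotted line. All 9 hairpin libraries lie above the dotted line, and shRARRES2_3 replicate 2 (purple square) is the lowest of them for SRSF1, SEPT7 and TOMM40L.

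PGM2, which interconverts sugar phosphates, had 37.2, 51.7 and 47.9 CPM in the controls and 62.3, 72.9 and 98.3 CPM as lowest, median and highest hairpin library (log2 change 0.71, SE 0.19, limma adjusted p = 0.383). CPT2, which completes the carnitine-dependent import of long-chain fatty acids into mitochondria, had 7.20, 6.34 and 5.06 CPM in the controls and 7.78 to 14.1 CPM in the hairpin libraries. Its log2 change was 0.54 (SE 0.25, limma adjusted p = 0.395), with 0.59, 0.54 and 0.50 by hairpin. PDSS1, a subunit of the enzyme that makes the side chain of coenzyme Q, had 3.79, 4.37 and 3.90 CPM in the controls and 4.92 to 13 CPM in the hairpin libraries. PDSS1 changed by 0.82 on the log2 scale (SE 0.32, limma adjusted p = 0.384), with 0.83, 0.82 and 0.83 by hairpin.

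ADH5, which reduces S-nitrosoglutathione and oxidises formaldehyde adducts, had 160, 176 and 168 CPM in the controls and 200 to 366 CPM in the hairpin libraries (log2 change 0.57, limma adjusted p = 0.384). TOMM40L, related to the pore of the outer mitochondrial membrane, had 2.38, 2.08 and 2.48 CPM in the controls and 3.19, 6.82 and 17.0 CPM as lowest, median and highest hairpin library. It was at 17.0 and 15.1 CPM in shRARRES2_1 replicate 1 and shRARRES2_3 replicate 1, and at 3.19 to 8.80 CPM in the other hairpin libraries. Its log2 change was 1.44 (SE 0.38, limma adjusted p = 0.383), and 1.60 without shRARRES2_3 replicate 2 (limma adjusted p = 0.0404). Without shGFP replicate 2 as well, limma called only 1 gene higher. PYCRL, an enzyme of proline synthesis, had 19.0, 12.2 and 6.61 CPM in the controls and 19.2 to 104 CPM in the hairpin libraries (log2 change 1.64, SE 0.51, limma adjusted p = 0.383). It was at 96.3 CPM in shRARRES2_1 replicate 1 and 104 CPM in shRARRES2_3 replicate 1, and at most 49.5 CPM in the other hairpin libraries. The part of these libraries in the changes was not tested.

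None of the members of 5 metabolic lists was called. Of 25 measured genes of fatty acid oxidation, 21 were above 0 (median 0.30), and CPT2 was separated (1 of 25, against 0.788% of all genes). For coenzyme Q synthesis it was 11 of 13 (median 0.41), with PDSS1 separated (1 of 13, against the same 0.788%). Complex I subunits had 29 of 37 above 0 (median 0.41), cholesterol synthesis and uptake 19 of 22 (median 0.49) and glycolysis 15 of 21 (median 0.31), with no separated member. Members separated as higher without shRARRES2_3 replicate 2 numbered 5, 3, 7, 3 and 5, in the order of the lists above. As lower there were 1 for fatty acid oxidation and 2 for complex I, while 6.50% of all genes were then higher and 4.38% lower. Limma then called 2 coenzyme Q, 1 cholesterol and 1 glycolysis gene higher and 2 complex I genes lower. Without shGFP replicate 2 as well, 8, 5, 19, 14 and 7 were higher, against 10.8%, and 1 and 2 lower, against 6.81%. Of all genes tested, 8104 of 15236 were above 0, with a median of 0.04. The median level of each of the 5 lists was highest in shRARRES2_1 replicate 1 and shRARRES2_3 replicate 1. For complex I it was 79.3 and 87.1 CPM there, 40.3 to 61.0 CPM in the other hairpin libraries and 36.0 to 48.5 CPM in the controls. For glycolysis it was 565 and 500 CPM, against 189 to 344 CPM and 206.5 to 224 CPM. The part of these libraries in the changes was not tested.

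Other higher genes with wide margins had varied roles. SEPT7, a filament-forming GTPase of the septin family, had 145, 152 and 147 CPM in the controls and 180.4, 231 and 334 CPM as lowest, median and highest hairpin library (log2 change 0.63, SE 0.22, limma adjusted p = 0.383). ATP6V1G1, a subunit of the proton pump that acidifies lysosomes, had 73.7, 91.5 and 81.0 CPM in the controls and 105 to 172 CPM in the hairpin libraries (0.53, limma adjusted p = 0.384). CUL2, the scaffold of the ubiquitin ligase in which VHL normally works, had 58.6, 77.8 and 74.1 CPM in the controls and 87.9 to 118 CPM in the hairpin libraries (0.48, limma adjusted p = 0.384). CATSPER1, a calcium channel subunit known from sperm, was low in every library, with 2.23, 2.03 and 2.75 CPM in the controls and 3.54 to 6.87 CPM in the hairpin libraries (0.91, limma adjusted p = 0.383).

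SELT, PPHLN1, GPATCH4 and GDE1 also had wide margins, with log2 changes of 0.51, 0.50, 0.90 and 0.55. The 6 separated higher genes that changed by at least 1 with each hairpin were PYCRL, RNFT2, RPS6KL1, STOML1, TOMM40L and TRIM55. RPS6KL1 had 2.08, 0.935 and 1.38 CPM in the controls and 2.44 to 9.93 CPM in the hairpin libraries (1.31, limma adjusted p = 0.383). RNFT2 had 1.34, 3.79 and 1.51 CPM in the controls and 3.98 to 9.68 CPM in the hairpin libraries (1.30, limma adjusted p = 0.383). On the lower side 10 genes did so, of which the 6 with the most even changes were GABPB1-AS1, GAS5, EIF4A1, RGL3, RP4-665J23.1 and SPOCK2. Evenness is that of the hairpin means, and replicates of 1 hairpin could differ widely, as given above for GABPB1-AS1 and EIF4A1. RGL3, an effector of Ras-like GTPases, had 35.0, 35.4 and 32.1 CPM in the controls and 7.81 to 28.1 CPM in the hairpin libraries (-1.12, limma adjusted p = 0.383). It was lowest in shRARRES2_1 replicate 1 (7.81 CPM) and shRARRES2_3 replicate 1 (8.29 CPM), followed by shRARRES2_2 replicate 2 (8.92 CPM).

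Proliferation genes had large median changes without a separated gene. Mitosis genes were above 0 for all 28 members (median 1.01) and DNA replication genes for 31 of 32 (median 0.99), with none separated and none called. With shRARRES2_3 replicate 2 left out, 2 mitosis and 6 DNA replication genes were separated as higher, against 6.50% of all genes then tested. Of each list 1 was then called, against 1.25% of all genes. For the mitosis genes the controls had median levels of 77.4, 12.7 and 70.8 CPM. Among the hairpin libraries, shRARRES2_3 replicate 2 had 16.2 CPM and the other 8 had 57.1 to 190 CPM. The replicate 2 libraries of shGFP and shRARRES2_3 were thus the lowest. Without both, the median change of the mitosis genes was 0.45 and that of the DNA replication genes 0.79. In bulk RNA, fewer cells of 1 kind and less RNA per cell cannot be told apart.

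Of the interferon response genes, 31 of 36 were above 0, with a median of 0.72 and none separated. Their median level was 22.2, 5.90 and 111 CPM in the controls and 4.49 to 87.8 CPM in the hairpin libraries, lowest in shRARRES2_3 replicate 2. The median change was 0.23 without both replicate 2 libraries and -0.22 without shGFP replicate 2 alone. By hairpin it was 1.68, 0.53 and 0.09. Actin and trafficking genes had 21 of 26 above 0 (median 0.67), none separated. With shRARRES2_3 replicate 2 left out, 10 were separated as higher and 2 as lower, against 6.50% and 4.38% of all genes then tested. Limma then called 2 higher and 1 lower, against 1.25% and 1.13%. Without shGFP replicate 2 as well, 10 and 2 were separated, against 10.8% and 6.81%, and 0 were called.

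**Figure D5:**
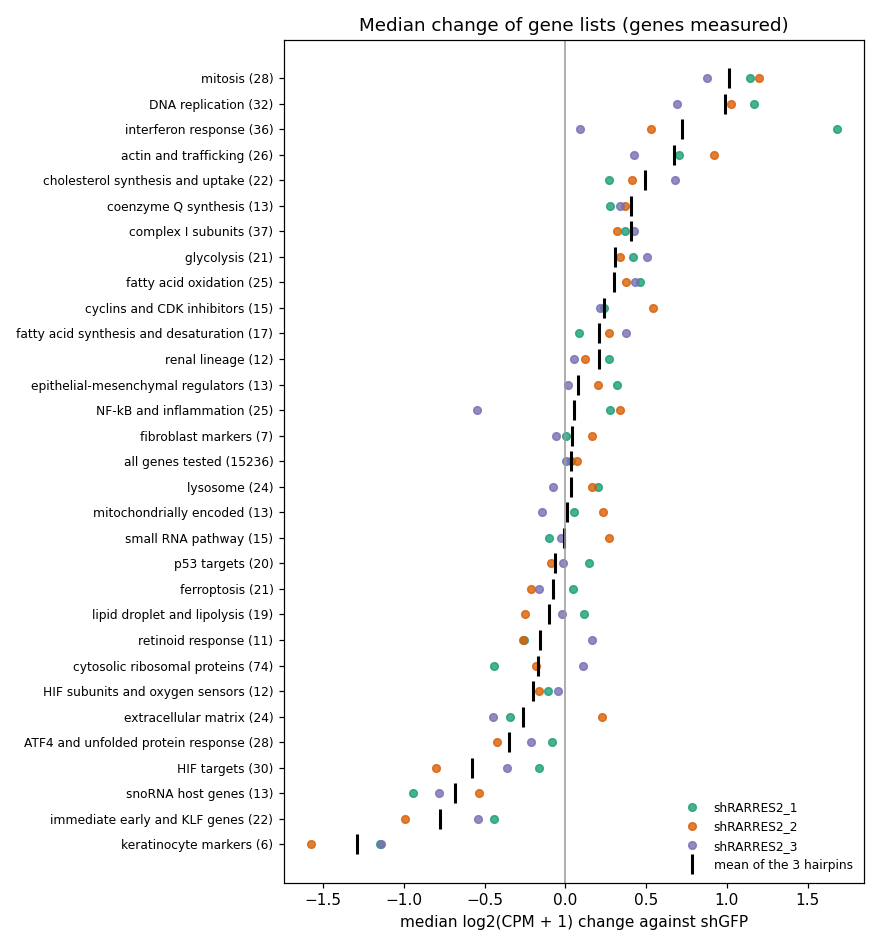
Median log2(CPM + 1) change against shGFP (horizontal axis) of the members of each gene list, with the number measured in brackets, for each hairpin (coloured points) and for their mean (black bars). Mitosis and DNA replication genes lie highest at 1.01 and 0.99, small nucleolar RNA hosts, immediate early genes and keratinocyte markers lie lowest, and all genes tested lie at 0.04. The keratinocyte median of -1.29 turned to 0.73 without replicate 2 of shGFP and of shRARRES2_3. Among the controls, the median level of these markers was 0.0742, 72.2 and 2.02 CPM in replicates 1, 2 and 3.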

How the data were processed

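Messenger RNA of 786-O cells was profiled in 12 libraries, 3 for each of shGFP, shRARRES2_1, shRARRES2_2 and shRARRES2_3, with group and replicate read from the sample titles. The deposited signal is CPM with TMM scaling, made by the authors. The hg38 (GRCh38) build and the tools edgeR, STAR 2.5.2, Trim Galore 0.6.1 and CASAVA are named in the submitters' processing notes, while the annotation and strand setting used for counting are not given in the sources used here. The tests had been planned for plain CPM, and the deposited scaling factors of 0.788 to 1.15 did not alter that choice. Dividing each column by the value of 1 read gave whole reads for 100% of values at a tolerance of 1e-06, so depth is known. Counting error is small for genes of several CPM and large near 1 CPM. Of 58381 identifiers, 58261 matched GENCODE 29 and 1733 entries shared a name, so identifiers were used.

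A gene was kept if 3 or more libraries had 1 CPM or more. With R 4.3.3, limma 3.58.1 was run on log2(CPM + 1) of all libraries with 4 group means, and the mean of the 3 hairpins was compared with shGFP, with a mean-variance trend, 8 residual degrees of freedom before moderation and Benjamini-Hochberg adjustment at 0.05. The pseudocount understates changes of low genes. Hairpins were compared by an F-test. Genes with no overlap were counted without a test. The steps were tested on simulated data. edgeR 4.0.16 and DESeq2 1.42.0 on recovered reads, other pseudocounts, filters and scalings, a replicate block and the removal of libraries were alternatives.

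The comparison, the gene lists and the rule for named genes were chosen with earlier results of these data known. Named were RARRES2, its receptors, EPAS1 and KLF6; genes called; of separated genes, the 12 each way with the widest gap at 5 CPM or more, the 6 with the highest CPM and the 6 of at least 1 with each hairpin and most even; up to 4 members of a list; and genes just inside or outside the rule.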

Additional observations from a re-analysis of the deposited data

Results flagged for a closer look

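EPAS1 changed by different amounts with the 3 hairpins, by -1.22, -2.78 and -0.79, with an adjusted p of 0.0441 in the limma F-test. Its 3 shRARRES2_2 libraries, at 72.6 to 95 CPM, lay below the other 6 hairpin libraries.

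For 6 of 54 named genes, 1 of the 9 hairpin libraries stood apart by Dixon's 95% criterion for the gap over the range, and chance alone marks about 1 in 20 groups. shRARRES2_2 replicate 2 was the highest for GPATCH4 (65.7 CPM, next 34.1, ratio 0.703), SRSF1 (270.4 CPM, next 162, ratio 0.632) and HNRNPU (1096 CPM, next 768, ratio 0.613). shRARRES2_2 replicate 1 was the highest for ATP6V1G1 (172 CPM, next 136, ratio 0.532). shRARRES2_3 replicate 2 was the highest for RP4-665J23.1 (5.74 CPM, next 4.11, ratio 0.529) and for CKB (25.6 CPM, next 13.5, ratio 0.514).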

How the results depend on the processing

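RARRES2 kept its direction and its call under every alternative run. The count of separated genes rested on the libraries: leaving out 1 library gave 124 to 976 higher and 113 to 658 lower genes, and 0 to 188 higher and 1 to 170 lower limma calls. Without all shRARRES2_1 libraries 221 genes were higher and 176 lower with no overlap, without shRARRES2_2 189 were lower, and without shRARRES2_3 1326 were higher and 949 lower, with 249 and 237 limma calls. Without both replicate 2 libraries of shGFP and shRARRES2_3 it was 1606 and 1009, with 1 call higher. With no filter on low values 268 were lower. DESeq2 called 61 higher and 71 lower. For these counts the cause was not tested, beyond the fewer libraries that a gene had to clear. Scaling to a common total gave 146 higher and 92 lower separated genes.

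KLF6, at 0.02, turned to -0.0724 with a common total, -0.00668 with median-of-ratios factors, -0.15 with edgeR, -0.14 with DESeq2, -0.17 without shRARRES2_1, -0.011 with shRARRES2_1 replicates 2 and 3 averaged and -0.41 without both replicate 2 libraries. It ranged from -0.51 to 0.30 when 1 library was left out.

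The replicate numbers were not taken as pairs, because not every same-numbered pair of libraries was correlated above 0.1. Of 18 such pairs, 11 had deviations correlated above 0.1 (range -0.19 to 0.75), and 8 of 12 libraries correlated best with their own number. As a hint from the data, all 3 pairs were above 0.1 for shGFP with shRARRES2_3 (0.27, 0.60 and 0.52) and for shRARRES2_1 with shRARRES2_3 (0.75, 0.49 and 0.41). With the replicate block limma made 0 calls higher and 1 lower, and RARRES2 changed by -3.47. Pseudocounts, the block, the 2-group fit and the count tests do not bear on separation in CPM, so they gave no value for it. With 3 controls and genes near 1 CPM, small differences were not detectable at this depth.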

Other observations

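Leaving out shRARRES2_3 replicate 2, 16 of the 188 genes called higher and 21 of the 170 called lower were among the 120 (0.788% of all genes) and 111 (0.729%) separated in all libraries. ACKR3 (log2 change -1.30, limma adjusted p = 0.0450), MIDN (-1.06, 0.0459), RNASET2 (-1.24, 0.0334), PIWIL4 (-0.99, 0.0476), NF2 (1.16, 0.0334) and PGRMC1 (0.79, 0.0476) were among them, of which PIWIL4, NF2 and PGRMC1 were chosen after their values were seen. Without shGFP replicate 2 as well, limma called 1 gene higher and 1 lower, the lower one being RARRES2. Separated and called genes were drawn from the same values, and shRARRES2_3 replicate 2 was left out because the counts turned on it. Their overlap and these adjusted p are therefore no independent evidence. NF2 encodes the tumour suppressor merlin. NF2 had 61.4, 71.3 and 70.2 CPM in the controls and 75.9 to 243 CPM in the hairpin libraries.

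In the remaining lists few genes were separated. The HIF subunits and oxygen sensors had 8 of 12 members below 0 (median -0.20), with EPAS1 the separated one (1 of 12, against 0.729% of all genes). Renal lineage genes had 9 of 12 above 0 (median 0.21), retinoid response genes 7 of 11 below 0 (median -0.15), p53 targets 11 of 20 below 0 (median -0.06) and lipid droplet and lipolysis genes 11 of 19 below 0 (median -0.10), with none separated. Ferroptosis genes had 13 of 21 below 0 (median -0.08). Mitochondrially encoded genes had 8 of 13 above 0, with a median of 0.01 that turned to -0.08 when libraries were scaled to a common total.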
